A study of Ovis aries with 54 samples.

Results

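Lung tissue of 7 sheep (Ovis aries) that had received porcine elastase and lipopolysaccharide (PE/LPS) in one lobe and saline in another was compared within each animal. The 14 pieces concerned were chosen by their treatment label and sheep number out of 18 in the series, and their 42 libraries, 3 to a piece, out of 54. The PE/LPS pieces came from sheep 1, 2, 8, 11, 14, 15 and 16 and all carried the letter code LC in their titles, and the saline pieces of the same sheep all carried the code RA. Treatment and letter code therefore cannot be told apart within these sheep. A further 4 control pieces, from 4 other sheep labelled Control, held both codes: LC in sheep 10 and 18, and RA in sheep 7 and 9. They were not part of the comparison and are given only to show the codes in sheep outside the exposure. Breed, sex, age, dose and the time between exposure and sampling were not given in the sources used here. The same holds for the meaning of the codes and of further characters in the titles of the PE/LPS pieces of sheep 2, 8 and 11 and of the control piece of sheep 9. It also holds for the S numbers in the titles. These were 46 to 54 for the PE/LPS pieces of sheep 2 and 8 and the saline piece of sheep 1. All other pieces had 45 or less, so in sheep 1, 2 and 8 treatment and S number range cannot be told apart.

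Elastase cuts elastin, the protein that lets alveolar walls recoil, and its instillation is a classical way to produce emphysema-like loss of alveoli in animals. Lipopolysaccharide, a component of the outer membrane of Gram-negative bacteria, is sensed by TLR4 and induces cytokines, chemokines and the entry of neutrophils through NF-kB. Where agent and vehicle go to separate lobes of 1 animal, genotype, diet and infection history are shared between the pieces compared.

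The pieces were lung by their markers. SFTPC, which encodes surfactant protein C of alveolar type 2 cells, ranged over 2820 to 116000 CPM (a gene's counts scaled to a common total) in the 14 pieces, and AGER, a marker of alveolar type 1 cells, over 133 to 2050 CPM. The heart and skeletal muscle genes MYL2 and CKM did not exceed 0.308 and 0.489 CPM. Each value is the sum of 3 libraries, and piece totals ran over 9653262 to 37777824 counts in PE/LPS and 12760040 to 34762189 counts in saline tissue. Of the 42 libraries, the shallowest was library 1 of sheep 11's PE/LPS piece with 115109 counts, and the others held 2777537 to 14885272. In bulk tissue, fewer cells of a type and less RNA per cell cannot be told apart. Nothing in the labels says that the 3 libraries came from separate samplings, so p-values measure the spread between the 7 sheep.

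No gene passed the threshold of 0.05 by edgeR's quasi-likelihood test with sheep as a block and Benjamini-Hochberg adjustment, which is 0% of 16944 genes. The smallest adjusted p was 0.338. At an unadjusted p under 0.05 the same edgeR test gave 976 genes, 5.76% of those tested, with 426 higher (2.51%) and 550 lower (3.25%) in PE/LPS. With no difference at any gene, 847.2 would be expected at that level. DESeq2, run as an alternative, called 47 of the 16944 genes (33 higher and 14 lower), among them 20 of the 30 genes of smallest edgeR p described next. Both tests use the same 14 pieces, so this overlap is not independent evidence. Most of the other DESeq2 calls were genes without a symbol. The split between the directions depends on the scaling: 43.6% of the 976 genes were higher in PE/LPS, as against 50.7% with median-of-ratios (RLE) scaling of the same fit. Across all genes the median log2 fold change was -0.03, and 47.2% of genes lay above 0 and 52.8% below.

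The sheep differed in how far their lobes were apart. In sheep 2, 14 and 8, 42%, 41.6% and 41.1% of genes differed by over 1 log2 unit between the PE/LPS and the saline piece. In sheep 16 the share was 30.5%, in sheep 11 22.8%, in sheep 1 17.9% and in sheep 15 16.4%. Over the 16944 genes, Pearson's r between the differences of 2 sheep ranged from -0.36 (sheep 14 and 16) to 0.50 (sheep 2 and 8) with a median of 0.08, and was above 0 in 12 of 21 pairs. These are correlations across genes, which are not independent replicates. The PE/LPS pieces of sheep 2 and 8 both carry S numbers of 46 to 54, unlike their saline pieces. Over 12594 genes with a mean of at least 100 counts a piece, the median SD of the PE/LPS minus saline difference between sheep was 0.75 on the log2 scale. The median SD between single libraries of a piece was 0.34, which is not the same quantity. Whether that spread is technical alone is not given by the labels. The median standard error of a log2 fold change was 0.33. The PE/LPS pieces of sheep 2, 8 and 11, which carry longer titles, stood apart in their noncoding RNA, so values are also given from a fit without these 3 sheep for described genes and for described list medians of at least 0.2 in size that it moved by over 1.5 times. The named genes at an unadjusted p under 0.05 in all 7 sheep numbered 106, some of them added after their values were seen. Without sheep 2, 8 and 11, 47 of them came nearer 0 by over 1.5 times, 1 moved away from 0 by as much, and none changed sign. An unadjusted p under 0.05 remained at 26 of them, with 4 sheep left. The genes were selected in a fit that holds the same 4 sheep, so kept signs and values nearer 0 follow partly from that choice.

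A total of 129 genes (0.761% of those tested) were higher in PE/LPS in 7 of 7 sheep, and 149 (0.879%) were lower. The ranges of the groups overlapped for all but 7 genes, each of them lower in PE/LPS (0.0413% of genes). No gene had all PE/LPS pieces above all saline pieces. Among so many genes, some take 1 direction in all 7 sheep, or have groups apart, without any difference. These counts were not tested against that number, so 7 of 7 sheep is a description of a gene and not a test.

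HOXA7, a homeobox transcription factor of anterior-posterior patterning, had the smallest p. Its lowest, median and highest values were 1.52, 12.2 and 25 CPM in PE/LPS, against 0.362, 0.864 and 1.61 CPM in saline pieces. The PE/LPS piece of sheep 1, at 1.52 CPM, is the only one that falls within the saline range, whose top is sheep 15. The control pieces split by code in the same way, with 8.80 and 10.8 CPM in the LC pieces against 0.542 and 1.78 CPM in the RA pieces. Its log2 fold change in the exposed sheep was 3.69 (SE 0.56, 7 of 7 sheep higher, edgeR adjusted p = 0.338). The HOX list as a whole was spread on both sides of 0, with 9 of 16 tested members above and a median of 0.07.

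Of the genes of the endothelin system, 2 were among the 15 higher genes of smallest p. EDN3 encodes endothelin 3, a ligand, and EDNRB a receptor for the endothelins that lung capillary endothelium carries. EDN3 was measured at 12.9, 27.1 and 37.8 CPM (lowest, median, highest) in PE/LPS and at 2.59, 7.76 and 27.4 CPM in saline pieces (log2 fold change 1.41, SE 0.39, 6 of 7 sheep higher). The saline pieces of sheep 1, 2 and 16 lay within the PE/LPS range, and that of sheep 16 lay just above its own PE/LPS piece. EDNRB was at 35, 95.3 and 246 CPM in PE/LPS and at 16.7, 63.3 and 91.1 CPM in saline pieces (log2 fold change 0.99, SE 0.22), with overlapping groups but 7 of 7 sheep higher. In the control pieces, EDN3 was again higher in LC (25.2 and 30.9 CPM) than in RA (9.92 and 12.8 CPM), and EDNRB stood at 93.1 and 107 CPM in LC and 45.3 and 80.9 CPM in RA.

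CXCR2, the receptor through which neutrophils follow CXCL8, was at 4.24, 11.6 and 25.8 CPM in PE/LPS pieces and 1.46, 3.54 and 10.8 CPM in saline pieces (log2 fold change 1.35, SE 0.34). It was higher in 6 of 7 sheep, with sheep 1 the exception, and sheep 8 had the highest value of each group. Of the 12 neutrophil markers tested 6 were above and 6 below 0, and CXCR2 was the only one at an unadjusted p under 0.05. The calgranulin S100A8 had 16.5, 87.7 and 214 CPM in PE/LPS and 12.2, 27.1 and 161 CPM in saline pieces (log2 fold change 1.05, SE 0.65). Its log2 fold change without sheep 2, 8 and 11 was -0.42, on the other side of 0.

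Heat shock genes were represented by HSPA6, a stress-inducible HSP70, and DNAJB1, its HSP40 partner. HSPA6 was at 5.81, 49.9 and 87.0 CPM in PE/LPS and at 6.76, 10.7 and 72.3 CPM in saline pieces (log2 fold change 1.57, SE 0.40). The overlap comes from the saline piece of sheep 15 at the top and the PE/LPS piece of sheep 1 at the bottom. HSPA6 was at 0.83 without sheep 2, 8 and 11. DNAJB1 was at 46.9, 89.8 and 202 CPM in PE/LPS and 34, 51.2 and 69.4 CPM in saline pieces (log2 fold change 0.94, SE 0.24) and was higher in 7 of 7 sheep. No other member of the heat shock and chaperone list was at an unadjusted p under 0.05. Of its 24 tested genes 16 had a negative log2 fold change, and the list median was -0.09.

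GJA1, which encodes the gap junction protein connexin 43, was at 69.3, 154 and 249 CPM in PE/LPS and 28.1, 82.9 and 103 CPM in saline pieces (log2 fold change 0.89, SE 0.24). KL, which encodes Klotho, a co-receptor for FGF23, was at 8.48, 16.1 and 37.9 CPM in PE/LPS and 1.66, 10.5 and 14.0 CPM in saline pieces (log2 fold change 1.11, SE 0.30, 7 of 7 sheep higher). GJA1 was higher in all sheep but sheep 16, whose pieces were close, and the saline piece of sheep 14 was the lowest of its group for both genes. BCAR3, an adaptor of integrin and SRC signalling, had a log2 fold change of 1.01 (SE 0.25), DKK2, a secreted WNT modulator, 0.73 (SE 0.21) and MYRF, a membrane-bound transcription factor, 1.03 (SE 0.31). BCAR3, DKK2 and MYRF were higher in 7 of 7 sheep. TMEM210 (log2 fold change 1.56, SE 0.44) and S100A1, a calcium-binding protein (1.15, SE 0.35), were higher in 6 of 7, and without sheep 2, 8 and 11 they were at 0.94 and 0.69.

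HBB, the beta chain of haemoglobin, was at 1.6, 7.63 and 42.7 CPM in PE/LPS and 0.163, 3.58 and 17.1 CPM in saline pieces (log2 fold change 1.88, SE 0.41, 6 of 7 sheep higher). Near-identical globin genes may share its reads, so its counts are uncertain. Only 3 genes of the erythrocyte list were tested, and HBQ1, which encodes haemoglobin theta and is named here after its values were seen, pointed the other way, at 0.52 to 2.09 CPM in PE/LPS and 1.47 to 3.72 CPM in saline pieces (log2 fold change -1.03, SE 0.55, 5 of 7 sheep lower). Without sheep 2, 8 and 11 HBQ1 was at -0.67 (SE 0.78). Haemoglobin genes made up 0.00191% ± 0.00173 of counts in PE/LPS and 0.00078% ± 0.000587 in saline pieces (SD, n = 7; exact two-sided sign-flip permutation test, p = 0.0781, adjusted p = 0.234 over the 3 shares tested, where the smallest p possible was 0.0156).

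ACTRT3, an actin-related protein gene, was higher in 7 of 7 sheep, with 15.8, 30.5 and 312 CPM in PE/LPS and 11.5, 25.8 and 35.1 CPM in saline pieces (log2 fold change 1.57, SE 0.47). The values of 312, 140 and 272 CPM in the PE/LPS pieces of sheep 2, 8 and 11 lay apart from those of the other 4 sheep, which ended at 30.5 CPM. Without these 3 sheep the log2 fold change was 0.43 (SE 0.30).

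**Figure D1:**
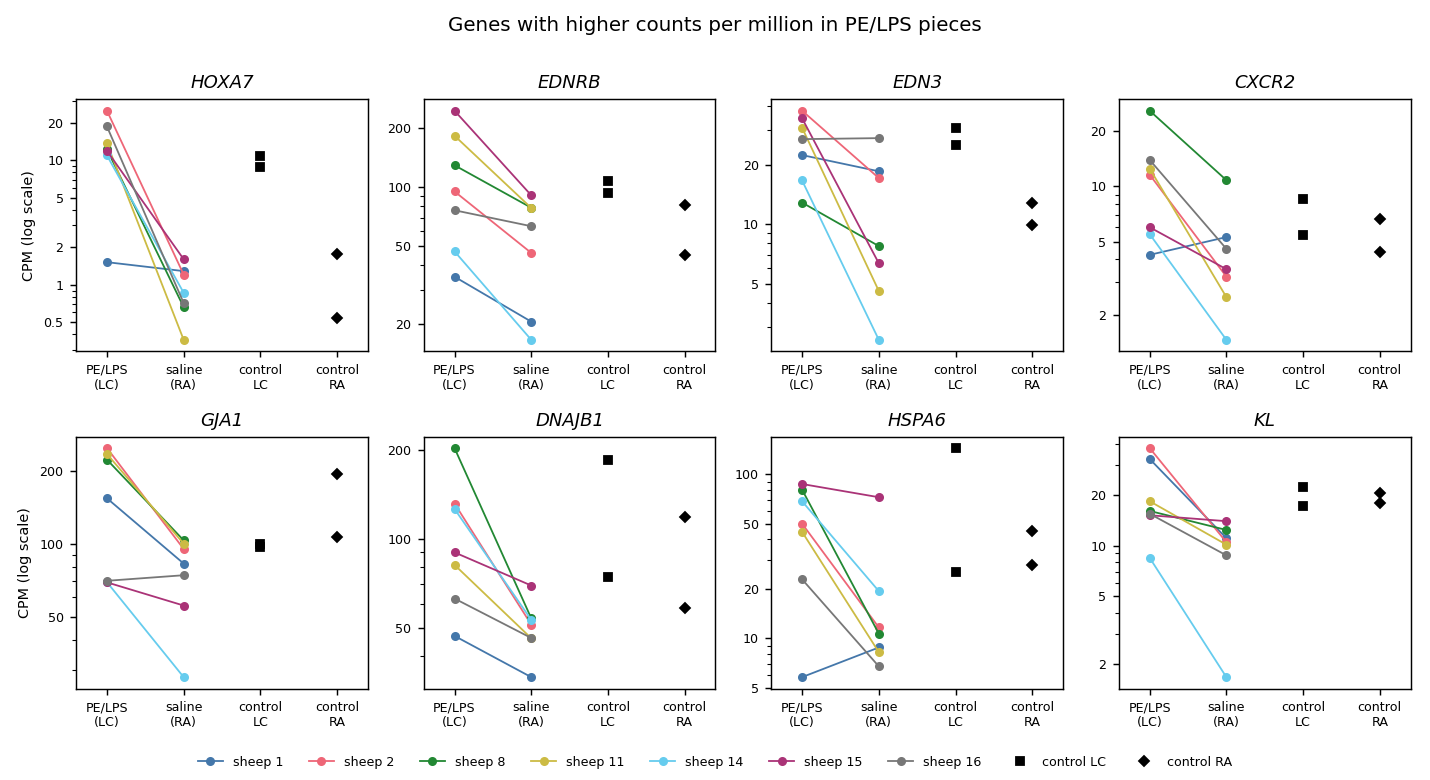
CPM on a log axis of 8 genes with a positive log2 fold change, with lines joining the PE/LPS and the saline piece of each of 7 sheep and black marks for the 2 LC and 2 RA control pieces. HOXA7, EDN3 and EDNRB separate by letter code in the control pieces as well (EDN3 at 25.2 and 30.9 CPM in LC against 9.92 and 12.8 CPM in RA). GJA1 separates the other way, at 97.2 and 99.4 CPM in LC against 107 and 194 CPM in RA. The line of sheep 1 is nearly flat for HOXA7.

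Among the lower genes, ATP6V1C2, a subunit of the vacuolar proton pump that acidifies vesicles and secretions, had the smallest p. It was at 4.92, 13.1 and 24.6 CPM in PE/LPS and 13.4, 27.7 and 67.7 CPM in saline pieces (log2 fold change -1.22, SE 0.24), lower in 7 of 7 sheep though the groups overlapped. The proton pump list was mixed, with 8 of 19 tested members above 0. HSD11B1L, a short-chain dehydrogenase, was at 0.932, 4.94 and 10.1 CPM in PE/LPS and 6.05, 10.4 and 15.9 CPM in saline pieces (log2 fold change -1.31, SE 0.30, 7 of 7 sheep lower).

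Matrix genes followed. COL3A1, which encodes type III collagen, was at 102, 158 and 306 CPM in PE/LPS and 230.2, 412 and 1814 CPM in saline pieces (log2 fold change -1.51, SE 0.36). COL1A1, the main chain of type I collagen, was at 80.2, 150.4 and 198 CPM in PE/LPS and 190.1, 264 and 2034 CPM in saline pieces (log2 fold change -1.38, SE 0.41). Both were lower in 7 of 7 sheep. The saline piece of sheep 14 held the highest values, and in sheep 1 COL1A1 was nearly level, at 191 CPM for PE/LPS against 196 CPM for saline. Without sheep 14 the log2 fold changes were -1.33 for COL3A1 and -1.06 for COL1A1.

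CCDC80, a matrix protein of fibroblasts, was at 105, 139 and 365 CPM in PE/LPS and 275, 340.2 and 553 CPM in saline pieces (log2 fold change -1.18, SE 0.29). The single overlap is the PE/LPS piece of sheep 1, at 365 CPM, and the other 6 PE/LPS pieces were at 165 CPM or less. ANKRD1, a target of the mechanosensitive co-activator YAP, was at 0.923, 2.93 and 7.39 CPM in PE/LPS and 3.66, 6.38 and 26.4 CPM in saline pieces (log2 fold change -1.94, SE 0.48), and sheep 1 was again the exception. ANKRD1 was at -1.29 without sheep 2, 8 and 11. Of the YAP and TEAD target list, 11 of 18 tested members lay above 0 (median 0.09).

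Genes of lipid metabolism were among the lower ones. DGAT1, which catalyses the last step of triglyceride synthesis, was at 1.97, 2.73 and 5.54 CPM in PE/LPS and 4.95, 7.00 and 13.6 CPM in saline pieces (log2 fold change -1.21, SE 0.33). ACSS2, which makes acetyl-CoA from acetate, was at 10.7, 18.1 and 29.2 CPM in PE/LPS and 18.2, 29.5 and 70.8 CPM in saline pieces (-0.88, SE 0.22). Both were lower in 7 of 7 sheep, with overlapping groups. Of the cholesterol and lipid synthesis list, 14 of 23 tested genes were below 0 (median -0.31), with the list median below 0 in 6 of 7 sheep. In it SQLE, squalene epoxidase, had -0.79 (SE 0.31) and FASN, fatty acid synthase, -0.74 (SE 0.30), whereas STARD4, a sterol carrier, had 1.00 (SE 0.37). SQLE was at -0.32 and FASN at -0.24 without sheep 2, 8 and 11, and the list median was then -0.07. By edgeR with Benjamini-Hochberg adjustment all 3 had an adjusted p of 0.771.

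The remaining lower genes by smallest p were TNFRSF6B, a soluble decoy receptor for FAS ligand (log2 fold change -1.24, SE 0.30), TLCD2 (-1.16, SE 0.30), BPIFB2, a secreted protein of the BPI fold family (-2.75, SE 0.72), EPS8L3 (-1.93, SE 0.51), ADGRG1, an adhesion G protein-coupled receptor (-1.11, SE 0.30), ENTPD7, a nucleotidase (-2.12, SE 0.58) and CAPN6, a calpain family member (-1.58, SE 0.43). TLCD2, EPS8L3, ADGRG1, ENTPD7 and CAPN6 were lower in 7 of 7 sheep. TNFRSF6B and BPIFB2 were lower in 6 of 7, and BPIFB2 had no counts in the PE/LPS pieces of sheep 2 and 11. ADGRG1 was at -0.55 (SE 0.32), TNFRSF6B at -0.76 and TLCD2 at -0.62 without sheep 2, 8 and 11. By edgeR with Benjamini-Hochberg adjustment every one of the 30 genes with the smallest p, 15 on each side, had an adjusted p of 0.771 apart from HOXA7.

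**Figure D2:**
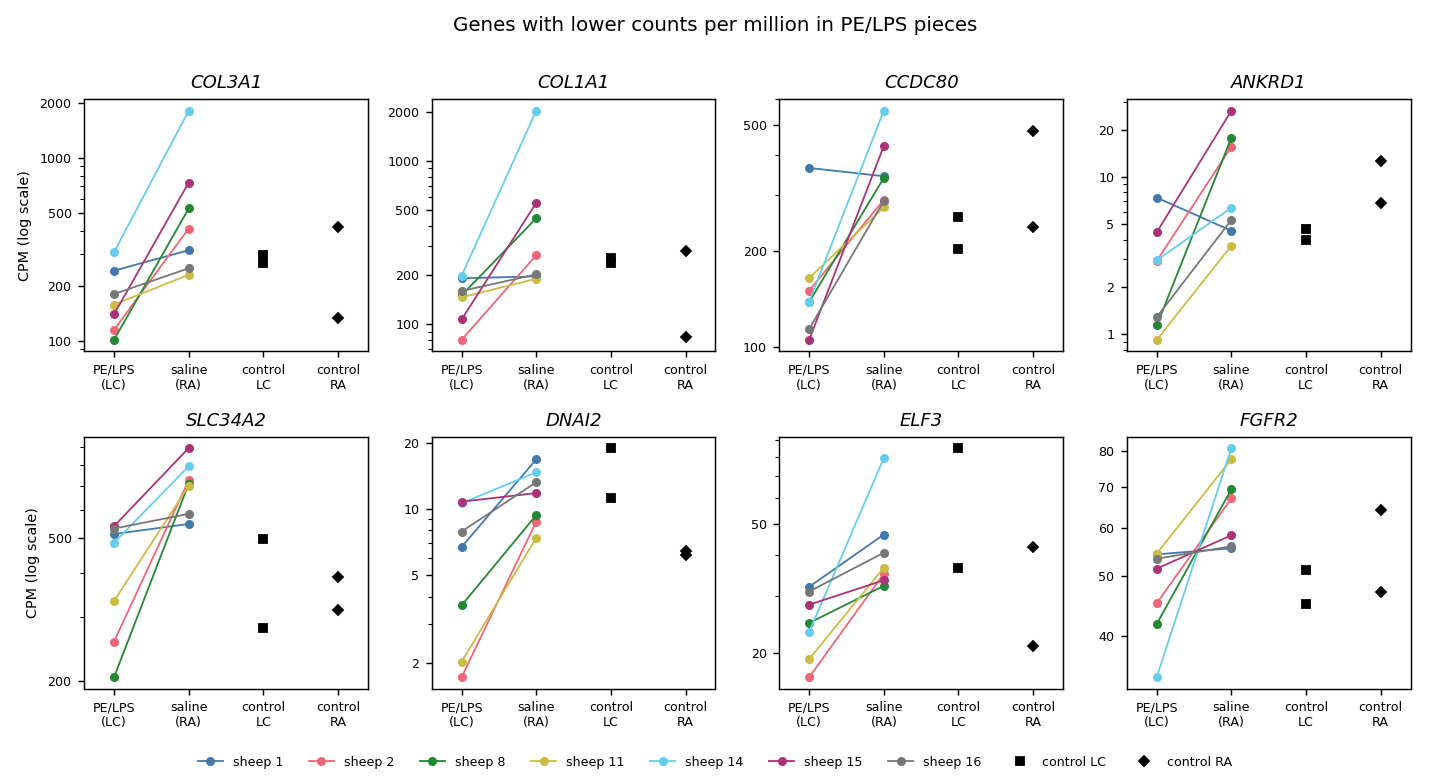
CPM on a log axis of 8 genes with a negative log2 fold change, with lines joining the PE/LPS and the saline piece of each of 7 sheep and black marks for the control pieces by code. The PE/LPS and saline ranges of SLC34A2, ELF3 and FGFR2 do not overlap, and the saline piece of sheep 14 stands at the top for both collagens (1814 CPM for COL3A1 and 2034 CPM for COL1A1).

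The 7 genes whose groups did not overlap were found after their values were seen, and their edgeR adjusted p was 0.771 for each. SLC34A2, the phosphate transporter of alveolar type 2 cells, was at 204, 485 and 539.5 CPM in PE/LPS and 547, 708 and 892 CPM in saline pieces (log2 fold change -0.86, SE 0.29). The gap between the groups is narrow, and the control pieces, at 280 to 498 CPM, all lay below the saline range. Its log2 fold change was -0.41 (SE 0.38) without sheep 2, 8 and 11.

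ELF3, an epithelial transcription factor, was at 16.9, 24.8 and 32 CPM in PE/LPS and 32.2, 36.6 and 79.5 CPM in saline pieces (log2 fold change -0.75, SE 0.23). FGFR2, the epithelial receptor for FGF7 and FGF10, was at 34.3, 51.5 and 54.5 CPM in PE/LPS and 55.6, 67.0 and 80.9 CPM in saline pieces (-0.47, SE 0.21). For both the highest PE/LPS piece nearly touched the lowest saline piece. KCNN4, a calcium-activated potassium channel, was at 0.266, 8.54 and 11.7 CPM in PE/LPS and 13.6, 16.4 and 24 CPM in saline pieces (-1.64, SE 0.57). Its control pieces, at 6.95 to 10.7 CPM, fell in the PE/LPS range. KCNN4 was at -0.74 (SE 0.32) without sheep 2, 8 and 11.

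RAD54L, a helicase of homologous recombination, was at 0.431, 1.74 and 2.98 CPM in PE/LPS and 3, 3.39 and 4.17 CPM in saline pieces (log2 fold change -1.33, SE 0.48), and -0.58 (SE 0.50) without sheep 2, 8 and 11. TMEM178A was at 0.399, 0.828 and 1.20 CPM in PE/LPS and 1.21, 1.72 and 3.23 CPM in saline pieces (-1.25, SE 0.55). In the control pieces RAD54L ran over 0.948 to 4.90 CPM and TMEM178A over 0.0593 to 0.496 CPM. The last of the 7 is a long noncoding RNA gene without a symbol, with a log2 fold change of -1.54 (SE 0.65).

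The cell type and pathway lists described next were chosen with results of these data known, so their counts are not independent evidence of direction. The ciliated cell list, of the cells that move mucus along the airways, was below 0 at all of its 29 tested genes (52.8% over all genes), 10 of them at an unadjusted p under 0.05 (3.25% over all genes). The list median was -0.64, and it was below 0 in 6 of 7 sheep, from -1.19 in sheep 1 to 0.25 in sheep 15. Without sheep 2, 8 and 11 it was -0.42, with 27 of 29 genes below 0. In that fit 1 was lower at an unadjusted p under 0.05 (0.918% over all its genes). DNAI2, a dynein chain of the axoneme, was at 1.73, 6.74 and 10.8 CPM in PE/LPS and 7.41, 11.8 and 16.8 CPM in saline pieces (log2 fold change -1.14, SE 0.31, 7 of 7 sheep lower). TEKT1, a tektin of the axonemal microtubules, had -0.82 (SE 0.29, 6 of 7 sheep lower) and ROPN1L, a protein of the radial spoke, -1.04 (SE 0.35, 5 of 7). Without sheep 2, 8 and 11 DNAI2 was at -0.66 (SE 0.34), TEKT1 at -0.27 (SE 0.33) and ROPN1L at -0.42 (SE 0.40).

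Secretory and mucous airway cell genes had the lowest list median, -0.73. Of 17 tested genes 14 were below 0, 4 of them at an unadjusted p under 0.05 (3.25% over all genes). The sheep differed widely, with medians of -2.79 in sheep 14 and -1.91 in sheep 16 against 1.12 in sheep 8 and 0.97 in sheep 15. Leaving out sheep 14 brought the median to -0.29. BPIFB1, a secreted host defence protein of airway glands and goblet cells, was at 24.2, 59.9 and 277 CPM in PE/LPS and 52.5, 170.4 and 1123 CPM in saline pieces (log2 fold change -1.68, SE 0.62). It was lower in every sheep but sheep 15. LCN2, an antibacterial siderophore-binding protein, had -1.53 (SE 0.64) and WFDC2, an epithelial whey acidic protein, -1.20 (SE 0.47), each lower in 6 of 7 sheep. In the fit without sheep 2, 8 and 11, LCN2 was at -0.56 (SE 0.41) and WFDC2 at -0.52 (SE 0.41). The club cell gene SCGB1A1 ran over 18.6 to 732 CPM in PE/LPS and 107 to 400.1 CPM in saline pieces, higher in 3 sheep and lower in 4.

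The 2 alveolar epithelial lists differed. Of the alveolar type 2 genes, of the cells that make surfactant, 15 of 16 were below 0 (median -0.60). At an unadjusted p under 0.05, 3 of them were lower (3.25% over all genes). Sheep 8, at a list median of -1.81, was the lowest, and without sheep 2, 8 and 11 the median was -0.18 with 10 of 16 genes below 0. SFTPC itself ranged over 2824 CPM (sheep 8) to 115700.0 CPM (sheep 1) in PE/LPS and over 17080.0 to 84680.0 CPM in saline pieces. ABCA3, the lipid pump of lamellar bodies, had a log2 fold change of -0.61 (SE 0.27, 5 of 7 sheep lower) and SLC22A31, a transporter family member, -0.97 (SE 0.37, 6 of 7). Without the 3 sheep they were at -0.37 and -0.33. Of the alveolar type 1 genes, of the flat cells of gas exchange, 11 of 16 were above 0 (median 0.12). The median was 0.44 without sheep 2, 8 and 11, with 15 of 16 genes above 0, and -0.03 without sheep 14. HOPX, a homeodomain protein of these cells, had 258, 1136 and 5571 CPM in PE/LPS and 112, 605 and 897 CPM in saline pieces (log2 fold change 1.31, SE 0.52, 6 of 7 sheep higher), and a log2 fold change of 0.81 without sheep 2, 8 and 11. The difference between the 2 lists was not tested.

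Mesothelial genes, of the lining of the pleura, had 5 of 6 tested members below 0 (median -0.57). At an unadjusted p under 0.05, 3 of them were lower (3.25% over all genes). MSLN, mesothelin, was at 0.399, 8.87 and 27.3 CPM in PE/LPS and 12.8, 26.2 and 85.4 CPM in saline pieces (log2 fold change -1.93, SE 0.54, 6 of 7 sheep lower). The other members at that level, KRT18 (-0.64, SE 0.25) and KRT19 (-0.76, SE 0.31), are keratins that other lung epithelia express too. KRT19 was at -0.21 without sheep 2, 8 and 11.

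Fibrillar and interstitial collagens had 19 of 21 tested genes below 0 (median -0.55). At an unadjusted p under 0.05, 7 of them were lower (3.25% over all genes) and none higher. The median was below 0 in all sheep but sheep 16 (0.25) and lowest in sheep 15 (-1.32). Without sheep 2, 8 and 11 it was -0.33, with 20 of 21 genes below 0. In that fit 3 were lower at an unadjusted p under 0.05 (0.918% over all its genes). COL5A1, which nucleates type I collagen fibrils, had -1.06 (SE 0.41, 6 of 7 sheep lower). Basement membrane genes, which support epithelium and capillaries, had 13 of 18 members below 0 (median -0.28). COL4A1 and COL4A2, the chains of the common type IV collagen, had -0.83 (SE 0.40) and -0.81 (SE 0.39), and COL4A5 -0.60 (SE 0.25). In all but sheep 16 these 3 genes were lower in PE/LPS. COL4A2 was at -0.52 without sheep 2, 8 and 11, and the basement membrane median was then -0.11.

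Genes of the elastic fibre, the substrate of elastase, had a median of -0.15, with 11 of 17 below 0. Lower at an unadjusted p under 0.05 were 3 of them (3.25% over all genes). ELN, which encodes elastin itself, was at 11.3, 45.4 and 78.8 CPM in PE/LPS and 31, 67.2 and 293 CPM in saline pieces (log2 fold change -1.09, SE 0.37, 6 of 7 sheep lower). The PE/LPS pieces of sheep 2, 8 and 11, at 11.3, 16.6 and 23.5 CPM, were the 3 lowest of the 14, and without those sheep the log2 fold change was -0.66 (SE 0.41). EFEMP2, a fibulin that brings lysyl oxidase to elastin, had -0.81 (SE 0.28) and LOXL2, a lysyl oxidase that crosslinks matrix, -0.67 (SE 0.29). Without the 3 sheep EFEMP2 was at -0.37 (SE 0.31) and LOXL2 at -0.24 (SE 0.33). The list median was 0.02 without sheep 15.

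Proteases and their inhibitors had medians near that of all genes (0.00 and -0.12). MMP7, matrilysin of airway and alveolar epithelium, was at 7.82, 40.5 and 190.2 CPM in PE/LPS and 17.6, 70.1 and 351 CPM in saline pieces (log2 fold change -1.01, SE 0.33, 6 of 7 sheep lower). PLAU, the urokinase plasminogen activator, was at 26.4, 64.3 and 142 CPM in PE/LPS and 17.2, 46.6 and 69.2 CPM in saline pieces (0.64, SE 0.27, 6 of 7 sheep higher). MMP12, macrophage elastase, had 0.805, 4.62 and 10.0 CPM in PE/LPS and 0.706, 1.71 and 4.60 CPM in saline pieces (0.94, SE 0.50). In the control pieces MMP12 was at 16.3 and 32.2 CPM in LC and at 1.90 and 8.87 CPM in RA. By limma voom over all pieces, its control LC minus RA difference was 2.28 (SE 0.83) against 0.75 within the exposed sheep. SERPINA1 is the gene of alpha-1 antitrypsin, the plasma inhibitor of neutrophil elastase. It had 0.492, 1.31 and 2.44 CPM in PE/LPS and 0.0544, 1.41 and 3.50 CPM in saline pieces, higher in 4 sheep and lower in 3. PLAU was at 0.36 and MMP12 at 0.55 without sheep 2, 8 and 11. SERPINA1 was at 0.57 (SE 1.17) in that fit, against 0.25 (SE 0.74) in all 7 sheep. TFPI, an inhibitor of coagulation started by tissue factor, had -0.67 (SE 0.30, 6 of 7 sheep lower).

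Endothelial genes had 14 of 22 tested members above 0 (median 0.23). At an unadjusted p under 0.05, none were lower and 3 were higher (2.51% over all genes). These were EDNRB, KDR and HPGD. Members of larger size pointed the other way, here named after their values were seen: VWF, which encodes von Willebrand factor (log2 fold change -1.02, SE 0.49), and ACKR1, a chemokine-binding receptor of venules (-1.06, SE 0.54), each lower in 6 of 7 sheep. Both fell most in sheep 2 and 8. VWF was at 10.5 CPM in PE/LPS against 77.8 CPM in saline in sheep 2, and at 6.71 against 74.1 CPM in sheep 8. ACKR1 was at 0.932 against 15.8 CPM in sheep 2 and at 1.51 against 17.6 CPM in sheep 8. For these 2 genes no value without sheep 2, 8 and 11 is given. KDR, the main VEGF receptor of endothelium, was at 87.9, 168 and 198 CPM in PE/LPS and 60.0, 106 and 127 CPM in saline pieces (log2 fold change 0.60, SE 0.24, 6 of 7 sheep higher). HPGD, which inactivates prostaglandins in the lung, was at 260.2, 431 and 884 CPM in PE/LPS and 99.6, 318 and 369.5 CPM in saline pieces (0.77, SE 0.31, 6 of 7 sheep higher). The saline piece of sheep 14 was the lowest for both. Sheep 14 had a list median of 1.12 and the other sheep -0.37 to 0.19, and without sheep 14 the median was 0.02. It was 0.47 without sheep 2, 8 and 11, with 20 of 22 genes above 0. The lists of vascular tone (median 0.05) and lymphatic endothelium (0.10) lay closer to that of all genes.

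Genes induced by LPS and NF-kB had 13 of 26 tested members on each side of 0, a median of 0.00, none at an unadjusted p under 0.05, and sheep medians of -0.21 to 0.32. Its members with the smallest p were PTGS2, the inducible cyclooxygenase, at 16.1, 24.8 and 47.6 CPM in PE/LPS and 11.6, 14.7 and 37.1 CPM in saline pieces (log2 fold change 0.51, SE 0.26), and BIRC3, an NF-kB-induced inhibitor of apoptosis (0.34, SE 0.27). CXCL8, the neutrophil chemokine, had 3.87, 9.15 and 37.4 CPM in PE/LPS and 2.47, 5.86 and 30.7 CPM in saline pieces (0.66, SE 0.56). CXCL8 was at -0.20 and BIRC3 at 0.01 without sheep 2, 8 and 11.

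Chemokine genes had 11 of 16 tested members above 0 (median 0.20), 3 of them at an unadjusted p under 0.05 (2.51% over all genes). CXCL9, an interferon gamma-induced attractant of T cells, was at 112, 184 and 977 CPM in PE/LPS and 55.1, 105 and 231 CPM in saline pieces (log2 fold change 0.96, SE 0.34, 6 of 7 sheep higher), and the highest value was that of sheep 2. CXCL11, which binds the same receptor, had 0.82 (SE 0.30, 6 of 7) and CCL26, an eotaxin, 1.00 (SE 0.41, 6 of 7). CXCL9 was at 0.50 and CXCL11 at 0.51 without sheep 2, 8 and 11, and CCL26 was at 0.65 without sheep 14. The chemokine list median was highest in sheep 14 (1.43) and lowest in sheep 16 (-0.68), and was -0.05 without sheep 14. The interferon response list had 16 of 23 members above 0 (median 0.16). The 2 of them at an unadjusted p under 0.05 (2.51% higher over all genes) were CXCL9 and CXCL11. MX1, an antiviral GTPase induced by type I interferon, had -0.46 (SE 0.24), and -0.16 without sheep 2, 8 and 11.

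Markers of immune cells were mixed. T and cytotoxic cell genes had 14 of 19 members above 0 (median 0.22, 0.00 without sheep 14 and 0.54 without sheep 2, 8 and 11), among them CD3G, a chain of the T cell receptor complex (64.1, 168 and 328 CPM in PE/LPS and 25.7, 102 and 149.5 CPM in saline pieces, log2 fold change 0.98, SE 0.36). Mast cell and basophil genes had 8 of 9 members above 0 (median 0.20, and 0.03 with 5 of 9 above 0 without sheep 2, 8 and 11), with GATA2, a transcription factor of these cells that endothelium also expresses, at 0.69 (SE 0.25). B and plasma cell genes had 16 of 22 below 0 (median -0.26), with IRF4, a plasma cell regulator, at -0.77 (SE 0.30) and DERL3, of the secretory apparatus, at -1.20 (SE 0.49), while CR2, the complement receptor of B and follicular dendritic cells, was at 0.71 (SE 0.32). The B and plasma cell median was -0.12, and DERL3 was at -0.58, without sheep 2, 8 and 11. Macrophage genes had 8 above and 9 below 0 (median -0.04) and none at an unadjusted p under 0.05. Without sheep 2, 8 and 11 their median was 0.34, and 1 gene, SPP1, was lower at that level (0.918% over all genes of that fit). The macrophage protein gene SPP1 ran over 8.58 to 26.1 CPM in PE/LPS and 9.43 to 315 CPM in saline pieces, where the highest value was that of sheep 14. Its log2 fold change was -0.77 (SE 0.51, 5 of 7 sheep lower). It was -1.56 (SE 0.66) without sheep 2, 8 and 11, and -0.32 without sheep 14.

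Immediate early genes, which are transcribed without new protein synthesis when cells are stimulated, had 22 of 29 members above 0 and the highest median among lists of over 5 tested genes, 0.44. They were above 0 in 6 of 7 sheep, from -0.04 in sheep 14 to 1.07 in sheep 16. FOS, a subunit of the AP-1 transcription factor, was at 55.2, 157 and 1056 CPM in PE/LPS and 31, 55.4 and 392 CPM in saline pieces (log2 fold change 1.19, SE 0.36, 6 of 7 sheep higher). KLF2, a flow-induced factor of endothelium, had 0.74 (SE 0.26) and MYC 0.63 (SE 0.24), 6 of 7 sheep each. FOS was at 0.79, MYC at 0.26 and the list median at 0.28 without sheep 2, 8 and 11.

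Of single genes in other lists, HMOX1, the haem-degrading enzyme, was at 25.7, 70.4 and 139.9 CPM in PE/LPS and 25.3, 34 and 72.6 CPM in saline pieces (log2 fold change 0.73, SE 0.28) and was higher in 7 of 7 sheep. It was at 1.12 without sheep 2, 8 and 11 and at 0.48 without sheep 14. Among p53 targets, the stress-induced SESN1 was at 0.91 (SE 0.30, 6 of 7 sheep higher) and its paralog SESN2 at -1.02 (SE 0.30, 7 of 7 lower), and they were at 0.37 and -0.64 without sheep 2, 8 and 11. Among growth factors, FGF18, which acts in alveolar development, was at -1.08 (SE 0.46) and FGFR1, a receptor of stromal cells, at -0.57 (SE 0.26), and at -0.18 without those 3 sheep.

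Cytosolic ribosomal protein genes had 30 of 36 members above 0 (median 0.26) and nuclear oxidative phosphorylation genes 19 of 25 (median 0.27). At an unadjusted p under 0.05 were 0 and 1 of them (5.76% over all genes). Ribosomal protein medians ran from -1.34 in sheep 16 to 1.08 in sheep 11, and oxidative phosphorylation medians from -1.43 in sheep 16 to 1.41 in sheep 14. Leaving out sheep 14 gave 0.05 for the oxidative phosphorylation list, and leaving out sheep 2 gave 0.15 for the ribosomal protein list. Ribosomal protein genes took 9.8% ± 3.57 of counts in PE/LPS and 7.77% ± 1.9 in saline pieces (SD, n = 7; exact two-sided sign-flip permutation p = 0.266, adjusted p = 0.266, higher in 5 of 7 sheep). Mitochondrial genes took 1.02% ± 0.321 in PE/LPS and 1.19% ± 0.276 in saline pieces (exact two-sided sign-flip permutation p = 0.172, adjusted p = 0.258, lower in 6 of 7 sheep).

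**Figure D3:**
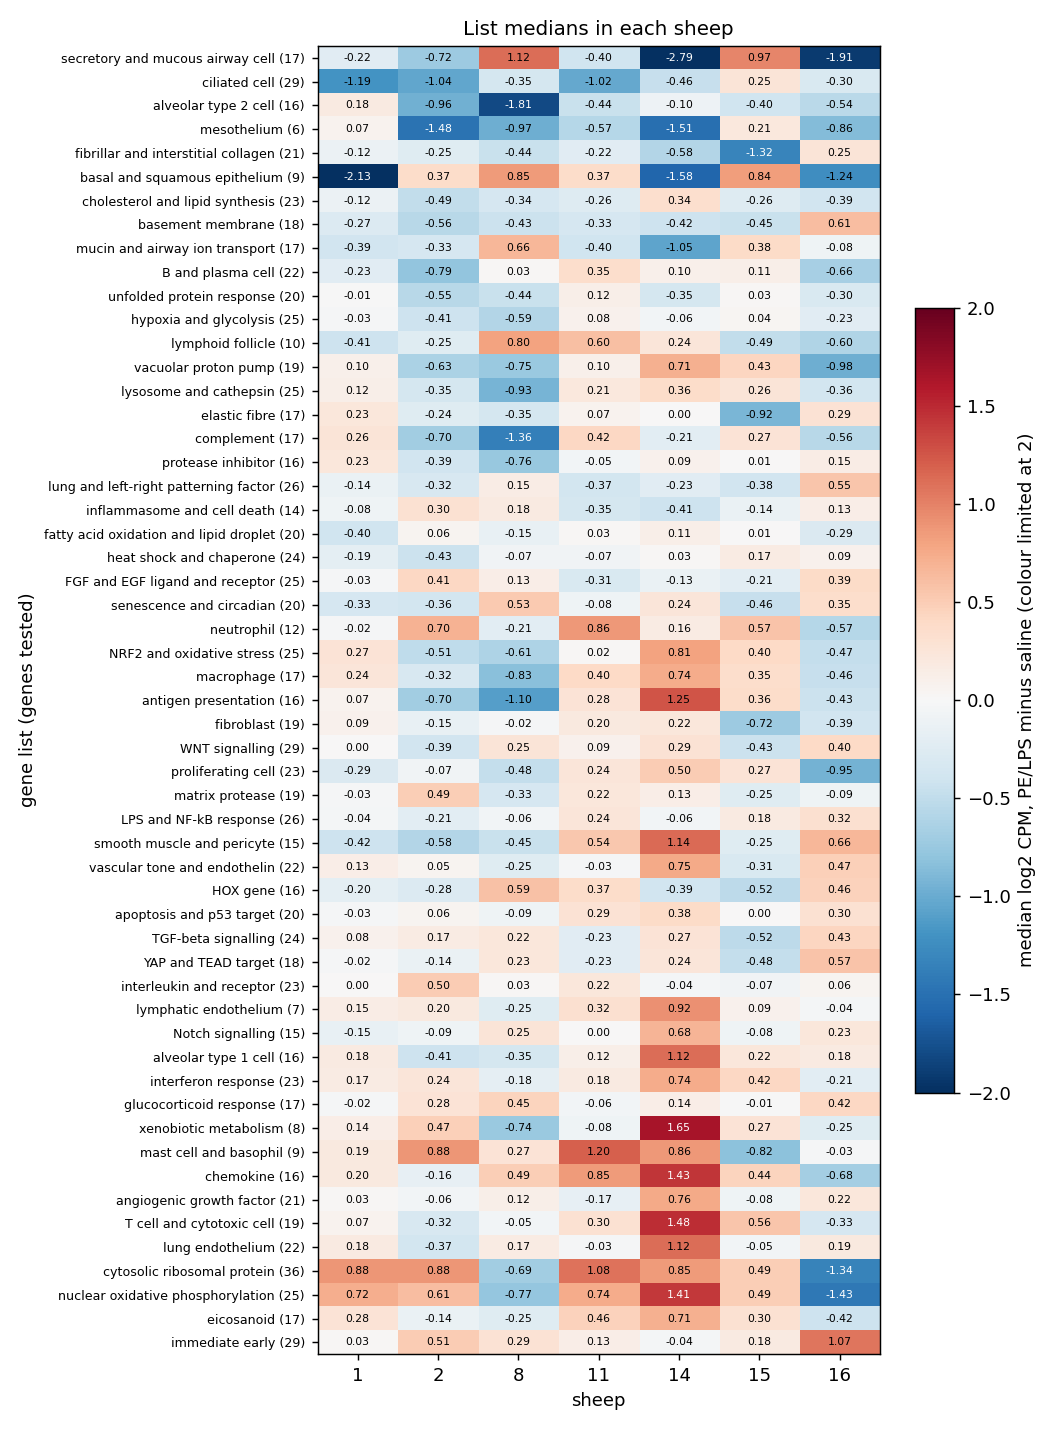
Median log2 CPM difference, PE/LPS minus saline, of each gene list with at least 5 tested genes, in each of 7 sheep, ordered by the median log2 fold change of the edgeR fit. Ciliated, type 2 and collagen lists are blue in 6 of 7 sheep, while the secretory list spans -2.79 in sheep 14 to 1.12 in sheep 8.

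Small noncoding RNAs were frequent among the genes with small p. Small nucleolar RNAs (snoRNAs) guide the chemical modification of ribosomal RNA, and small nuclear RNAs (snRNAs) form the spliceosome. By the classes of the RefSeq gene table, a grouping chosen after the data were seen, 17 of the 100 genes of smallest p were snoRNA and 9 snRNA genes, classes that made up 0.927% and 0.26% of genes tested, and 62 were protein-coding (85% of genes tested). By the same classes, 44 of 157 tested snoRNA genes were higher at an unadjusted p under 0.05 and 0 were lower. Of 44 snRNA genes 15 were higher and 2 lower. Among 14409 protein-coding genes the counts were 307 and 498, or 2.13% higher and 3.46% lower. The median log2 fold change was 1.29 for snoRNA, 1.33 for snRNA and -0.04 for protein-coding genes.

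Sheep 2, 8 and 11 held most of this. Their PE/LPS pieces had 6255, 6472 and 5429 CPM of the unscaled total on snoRNA genes, against 844, 493 and 1193 in their saline pieces. In the other 4 sheep the PE/LPS pieces had 551 to 1474 and the saline pieces 495 to 1239. The single libraries ran over 5610 to 6730 in the PE/LPS piece of sheep 2, 6050 to 6800 in that of sheep 8 and 2240 to 5500 in that of sheep 11. The PE/LPS to saline ratio was 4.55 to 13.1 in sheep 2, 8 and 11 and 0.444 to 2.98 in the other 4. For snRNA it was 5.82 to 17.4 against 0.143 to 4.39, and for ribosomal RNA genes 3.11 to 7.8 against 0.343 to 1.85. The saline piece of sheep 14 was the highest saline piece for all 3 classes, with 1178 CPM on snRNA genes.

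Without sheep 2, 8 and 11, 1 of 175 snoRNA genes was higher and 3 lower at an unadjusted p under 0.05, and the median was 0.06. Of 57 snRNA genes 5 were higher (8.77%) and 2 lower in that fit, with a median of 0.17. Over all 17638 genes of the fit 0.317% were higher and 0.918% lower. LOC114118586, a snoRNA gene, was at 1.70, 3.86 and 24.9 CPM in PE/LPS and 0.333, 1.21 and 6.15 CPM in saline pieces (log2 fold change 2.41, SE 0.43, 7 of 7 sheep higher), and LOC114115462, an snRNA gene, had 4.15 (SE 0.90, 7 of 7). Without the 3 sheep they had 1.77 (SE 0.65) and 2.42 (SE 0.70). On the lower side, LOC114109042, a long noncoding RNA gene, had -2.29 (SE 0.68) and LOC114113295, an snRNA gene, -2.48 (SE 0.75). Copies of snRNA genes are near-identical and snoRNA genes lie within introns of other genes, so how reads were split between them is uncertain. The labels describe priming on poly-A, and what set the PE/LPS pieces of sheep 2, 8 and 11 apart was not tested. Those of sheep 2 and 8 have S numbers of 46 to 54, and that of sheep 11 has 14, 29 and 44. With protein-coding genes alone in the fit, 0 genes were called and 844 were at an unadjusted p under 0.05, 340 higher and 504 lower.

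**Figure D4:**
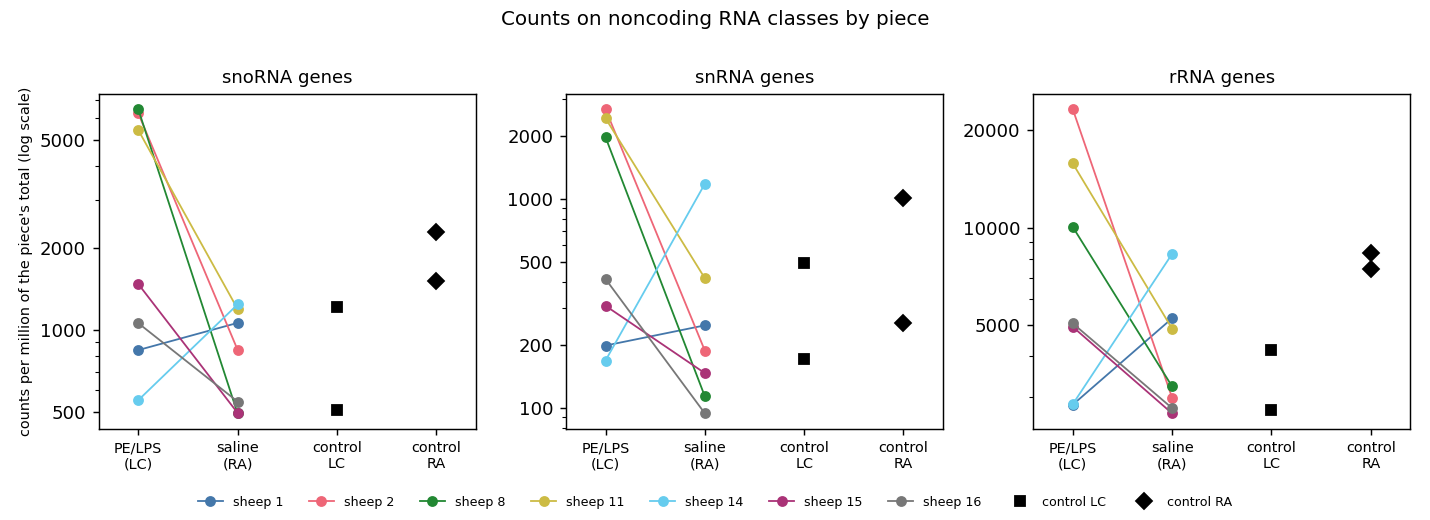
Share of each piece's unscaled total, in CPM, that fell on snoRNA, snRNA and ribosomal RNA genes, on log axes, with lines joining the PE/LPS and saline piece of each of 7 sheep and black marks for the control pieces by code. The PE/LPS pieces of sheep 2, 8 and 11 stand above all other pieces in each panel, at 5429 to 6472 CPM for snoRNA genes.

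The control pieces allow the letter code to be set beside the treatment. In limma voom fits over all 18 pieces, the PE/LPS minus saline difference was compared with the LC minus RA difference between control sheep. At an adjusted p under 0.05, 0 of 20719 genes (0%) differed between the 2 differences. The smallest adjusted p was 0.73, and 1268 genes were at an unadjusted p under 0.05. With 2 control sheep per code the errors are large, so these values do not separate code from treatment gene by gene. Of the 30 genes with the smallest p, 12 had the same sign in control LC minus RA, 9 of the 15 higher and 3 of the 15 lower ones.

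For HOXA7 the control difference was 3.46 (SE 1.27) against 3.53 in the exposed sheep in the same fit, a difference of differences of 0.07 (SE 1.45). EDN3 had 1.36 (SE 0.70) against 1.34, EDNRB 0.76 (SE 0.82) against 0.98 and HBB 1.48 (SE 1.99) against 1.51. GJA1 had -0.53 (SE 0.66) against 0.90, on the other side. Most of the lower genes pointed the other way in control sheep. DNAI2 had 1.22 (SE 0.62) in control LC minus RA against -0.89 within exposed sheep, a difference of -2.11 (SE 0.72, limma voom adjusted p = 0.73). EPS8L3 had 1.57 (SE 1.01) against -1.91 and COL3A1 0.31 (SE 0.74) against -1.54. ANKRD1 had -1.15 (SE 0.85) against -1.99, on the same side.

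**Figure D5:**
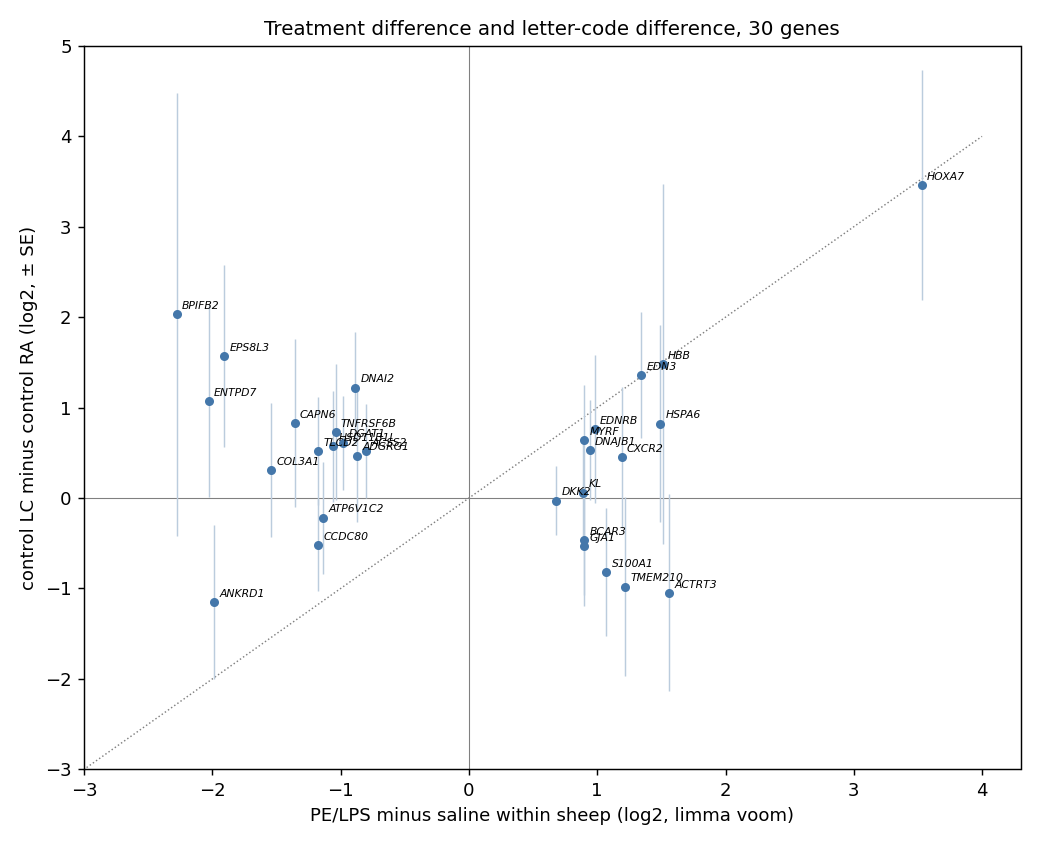
Log2 difference PE/LPS minus saline within sheep (x axis) and control LC minus control RA (y axis, ± SE), both from limma voom over 18 pieces, for the 30 genes with the smallest p. HOXA7, EDN3 and HBB lie close to the dotted line of equality (3.53 and 3.46 for HOXA7), and 12 of the 15 lower genes lie above 0 on the y axis.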

How the data were processed

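Poly-A-primed libraries of total RNA from lung were sequenced, 3 to a tissue piece. The authors deposited whole-number counts per gene, not normalized. Tools named in the submitters' processing notes are edgeR 3.40.2, Subread 1.6.3, featureCounts, STAR 2.7.10b, Trimmomatic 0.39 and FastQC 0.11.9, in no stated role. Build, annotation, strand setting and any use of molecular identifiers were not given in the sources used here. Overlapping, antisense or near-identical genes may therefore have misassigned reads. Besides 2 rows without values, 30184 genes were used, and 84.3% matched a RefSeq table (assembly ARS-UI_Ramb_v3.0), used for names and classes.

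The libraries of a piece share an animal and were summed. edgeR 4.0.16 (R 4.3.3) fitted the 14 pieces by quasi-likelihood with TMM scaling, filterByExpr (minimum count 10, total 15), robust shrinkage and Benjamini-Hochberg adjustment over all genes. The sheep was a block, as the series design describes both exposures in the lobes of each animal. SE is the log2 fold change divided by the root of F. CPM use TMM-scaled totals, with a prior count of 2 on the log2 scale. limma 3.58.1 voom over 18 pieces, with the sheep as a random block, compared treatment with letter code. The within-sheep correlation estimated there was -0.0241, so the block had little effect and that fit was close to unpaired. The fit was also run on simulated counts with no difference between sheep, a setting that cannot test the sheep block. Alternatives were DESeq2 1.42.0, voom, other scalings and filters, single libraries, no sheep block and omitted sheep.

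The members and the 57 gene lists were chosen with earlier results of these data known. Named genes are the 15 of smallest p a side with a symbol and 1 direction in 6 or more sheep, the 3 of smallest p in a list, and 12 fixed genes. Genes with groups apart and the class grouping were added after their values were seen.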

Additional observations from a re-analysis of the deposited data

Results flagged for a closer look

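Among 94 values followed over the 7 sheep, 4 had 1 sheep far from the others by Dixon's criterion, which chance flags in about 1 in 20 groups. All 4 are list medians of the PE/LPS minus saline difference on the log2 CPM scale. The basement membrane list stood at 0.61 in sheep 16, where the median sheep was at -0.42. The alveolar type 1 list stood at 1.12 in sheep 14, where the median sheep was at 0.18. The lung endothelium list also stood at 1.12 in sheep 14, against a median of 0.17, and the angiogenic growth factor list at 0.76 in sheep 14, against 0.03.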

How the results depend on the processing

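Relative to 0 genes called with the sheep as replicate block, 1 gene (HOXA7) was called with no replicate block, 1 with no filter on low counts, and 0 to 1 with a sheep left out in turn (1 without sheep 1). DESeq2 called 47. At an unadjusted p under 0.05, against 976, DESeq2 gave 1756, library 1 of each piece alone 570, the fit without sheep 2, 8 and 11 218, that without sheep 1, 2 and 8, whose pieces carry S numbers of 2 ranges in their titles, 303, and no replicate block 1198. With a sheep left out in turn the count lay between 390 (sheep 2 out) and 2259 (sheep 16 out), and was 539 with sheep 11 out. The share of these genes that was higher in PE/LPS, 43.6%, was 63.8% with no replicate block, 34% for library 1 alone and 25.7% without sheep 2, 8 and 11. Genes higher in 7 of 7 sheep numbered 60 in library 1 alone, against 129. A set of 106 genes was followed over the alternatives, and 6 changed direction. It is not the set of 106 named genes at an unadjusted p under 0.05, and the 6 are all above that level. Without sheep 2, 8 and 11 the log2 fold change was -0.42 for S100A8, -0.20 for CXCL8, 0.00983 for SFTPC and 0.56 for SCGB1A1. Without sheep 1, 2 and 8 it was -0.0859 for S100A8, -0.18 for CXCL8 and 0.65 for SCGB1A1. With no replicate block SCGB1A1 was at 0.0566 and SERPINA1 at -0.0756. With a sheep left out in turn SCGB1A1 ran from -1.01 to 0.00787 and SERPINA1 from -0.23 to 0.62. MMP12 was at -0.10 in library 1 alone. The causes were not tested. Precision is that of 7 sheep, with a median standard error of 0.33 on the log2 scale.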
